A study of Rattus norvegicus with 11 samples.

Results

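Inhibitory signalling in the cortex depends on a small set of genes, and 6 of them were followed here across sex and the estrous cycle in the medial prefrontal cortex (mPFC) of rats. They were taken by Ensembl identifier from the 15607 genes of the DESeq2-normalized table, and all 6 were present: Gad1 (ENSRNOG00000000007), Gad2 (ENSRNOG00000018200), Slc32a1 (ENSRNOG00000015393), Pvalb (ENSRNOG00000006471), Calb1 (ENSRNOG00000007456) and Calb2 (ENSRNOG00000016977).

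Gad1 and Gad2 encode GAD67 and GAD65, the enzymes that make the transmitter GABA from glutamate. GAD67 supplies most of the GABA of the cell body, and GAD65 sits mainly at nerve endings, where it makes GABA for release. Slc32a1 encodes VGAT, the transporter that loads GABA into synaptic vesicles. Pvalb, Calb1 and Calb2 encode parvalbumin, calbindin and calretinin, calcium-binding proteins of the EF-hand family that are used to tell classes of cortical interneurons apart. Parvalbumin marks fast-spiking basket and chandelier cells. Calbindin is also made by some cortical pyramidal cells, so it is not a marker of interneurons alone.

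Gene expression had been measured by poly(A) RNA sequencing of mPFC punches (infralimbic, prelimbic and cingulate areas) from Sprague-Dawley rats that were 2 to 3 months old. There were 4 males, 4 females in diestrus and 3 females in proestrus, with 1 library each. The labels name no transgene, drug or hormone treatment in any group. Proestrus is the stage of the cycle when ovarian hormones are high, and diestrus a stage when they are low. Stage was set by vaginal cytology. Diestrus females were killed early in the day and proestrus females in the early afternoon, so stage and hour of collection cannot be told apart.

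The libraries held 15.9 to 24.6 M reads on genes. The 6 genes had between 114 and 5680 reads in any library, for which counting error alone is 9.37% and 1.33% of the value. The samples are bulk tissue, in which fewer cells of a type and less RNA per cell cannot be told apart. The reads carried no strand information, so reads from a gene and from any antisense partner are summed. Levels are given as DESeq2-normalized counts, which allow a gene to be compared between libraries but, with no lengths applied, not with another gene.

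Gad2 was the 1 gene of the 6 whose libraries separated by stage. Its normalized count was 111.7, 149.3, 166.0 and 256.4 in diestrus libraries 2, 3, 4 and 5. It was 448.0, 429.6 and 471.8 in proestrus libraries 1, 3 and 5. The males spanned the space between, with 266.6, 161.0, 393.6 and 360.0 in males 2, 3, 4 and 5. All proestrus libraries therefore lay above all diestrus libraries and above all males, whereas diestrus and males overlapped through male 3 and diestrus 5. Group means were 170.8 ± 61.4 in diestrus (SD, n = 4), 295.3 ± 104.4 in males (SD, n = 4) and 449.8 ± 21.2 in proestrus (SD, n = 3).

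Fold changes below are differences of mean log2(normalized count + 1), tested with limma, with p-values adjusted (Benjamini-Hochberg) across the 15607 genes at a false discovery rate (FDR) of 0.05. Gad2 was higher in proestrus than in diestrus by 1.46 (95% interval 0.84 to 2.07, adjusted p = 0.0266, limma), which is a 2.74-fold difference with an interval of 1.79 to 4.20. It was the 1 gene of the 6 past the FDR in proestrus vs diestrus, where 2.53% of all genes passed in either direction and 2.45% passed as higher in proestrus. The groups also did not overlap for 26.6% of all genes in that comparison, and 26.7% of genes had an unadjusted p below 0.05, so non-overlap alone was common. The call was lost when any single proestrus library, or diestrus 2, 3 or 4, was left out, with a log2 fold change of 1.27 to 1.49 and an adjusted p of 0.0533 to 0.146 (limma). Few of the 15607 genes passed in those fits, against 395 with all libraries. The number was 0 without proestrus 1 or 3 and 25 without proestrus 5. It was 21, 35 and 95 without diestrus 2, 3 and 4. An exact permutation test over these 7 samples gave a two-sided p of 0.0571, where the smallest possible p is 0.0286.

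**Figure D1:**
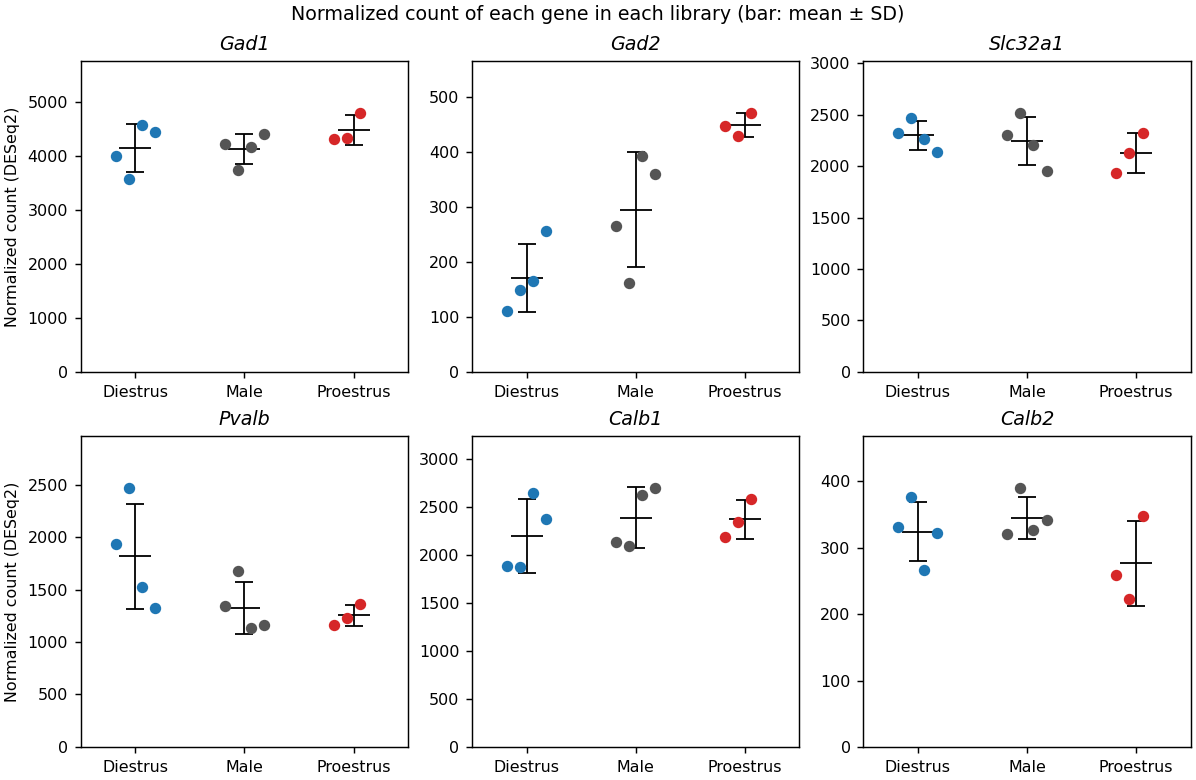
Normalized count (y axis, from 0) of the 6 genes in each of the 11 libraries, by group (x axis); points are libraries, and bars are the mean ± SD of 4 diestrus, 4 male and 3 proestrus libraries. For Gad2, the proestrus libraries at 429.6 to 471.8 lie above every other library. For Gad1, Slc32a1, Pvalb, Calb1 and Calb2 the 3 groups overlap.

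Compared with males, the Gad2 difference had opposite signs in the female groups, and neither passed the FDR. It was 0.68 in proestrus (95% interval 0.07 to 1.30, adjusted p = 0.418, limma), and 0.42 without male 3 (adjusted p = 0.813, limma), with a range of 0.42 to 0.85 without 1 library at a time. It was -0.77 in diestrus (95% interval -1.34 to -0.20, adjusted p = 0.432, limma), with a range of -1.03 to -0.59. Both comparisons share the same 4 male libraries, and their difference is the stage comparison given above. The unadjusted p was 0.0319 and 0.0117, values that 11.3% and 9.62% of all genes had below 0.05. With both stages pooled, females and males had nearly the same mean, 290.4 and 295.3 normalized counts, at a log2 difference of -0.15 (95% interval -1.01 to 0.72, adjusted p = 1.000, limma). The SD of the 7 females was 155.8, so pooling joined both ends of the range.

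The share of Gad2 among the reads of both GAD genes does not depend on scaling between libraries. It was chosen after the values were seen and is given without a test. The share was 2.72%, 4.01%, 3.51% and 5.46% in diestrus 2, 3, 4 and 5. It was 9.42%, 9.00% and 8.95% in proestrus 1, 3 and 5. Males 2, 3, 4 and 5 had 5.94%, 4.12%, 8.64% and 7.53%. Exact 95% binomial (Clopper-Pearson) intervals, which cover counting error only, ran from 4.90% to 6.06% for the highest diestrus library and from 8.18% to 9.76% for the lowest proestrus library. The interval of male 4, 7.77% to 9.57%, overlapped those of all 3 proestrus libraries. These shares describe reads and not molecules of the enzymes, because longer transcripts give more reads.

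**Figure D2:**
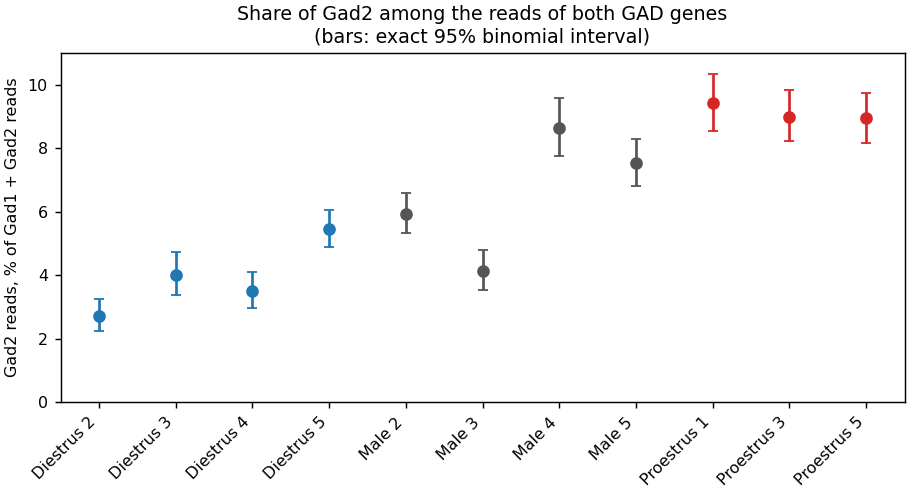
Gad2 reads as a percentage of Gad1 and Gad2 reads (y axis) in each of the 11 libraries (x axis, colour by group), with the exact 95% binomial interval of each share. Diestrus libraries lie between 2.72% and 5.46% and proestrus libraries between 8.95% and 9.42%, with males from 4.12% to 8.64%.

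Gad1, the other GABA-synthesizing enzyme gene, varied far less. Its normalized count was 4001, 3578, 4569 and 4439.6 in diestrus 2, 3, 4 and 5, and 4309, 4343 and 4801 in proestrus 1, 3 and 5. Males 2, 3, 4 and 5 had 4218, 3746, 4161 and 4418. The groups overlapped throughout. Its log2 difference was 0.12 in proestrus vs diestrus (95% interval -0.07 to 0.31, adjusted p = 0.388, limma), so a change as large as that of Gad2 lay outside its interval. Against males it was 0.12 in proestrus (95% interval -0.07 to 0.31) and -0.00021 in diestrus (95% interval -0.18 to 0.18). Without 1 library at a time these small values moved by over 1.5 times, from 0.049 (without diestrus 3) to 0.17 between the stages and from 0.067 (without proestrus 5) to 0.15 in proestrus vs males.

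The vesicular GABA transporter gene Slc32a1 was also steady. Its normalized count was 2318, 2471, 2267 and 2135 in diestrus 2, 3, 4 and 5, and 1934, 2122 and 2324 in proestrus 1, 3 and 5. Males 2, 3, 4 and 5 had 2302, 2517, 2203 and 1954. The lowest value of the set was a proestrus library and the highest a male, and all groups overlapped. The log2 difference was -0.11 in proestrus vs diestrus (95% interval -0.31 to 0.08, adjusted p = 0.419, limma). It was -0.08 in proestrus vs males (95% interval -0.27 to 0.12) and 0.04 in diestrus vs males (95% interval -0.15 to 0.22). Single libraries moved these as well, between -0.18 (without proestrus 5) and -0.047 (without proestrus 1) for the stages, and between -0.14 and -0.0090 (without the same libraries) in proestrus vs males.

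Gad2 and Slc32a1 are shown here at the level of sequence because they stood at opposite ends of the set, the first the most and the second the least variable between libraries. The 250 bases before the annotated start of each gene were taken from RefSeq promoters of the GRCr8 assembly, for which 4 of the 6 genes had an entry (Calb1 and Calb2 did not). That assembly differs from the one the reads were aligned to. Both are printed 5′ to 3′ on the strand of the gene (plus), with CpG dinucleotides, the sites of DNA methylation, in capitals. The first lies at chr17:89671468-89671717 and the second at chr3:167686995-167687244.
Gad2: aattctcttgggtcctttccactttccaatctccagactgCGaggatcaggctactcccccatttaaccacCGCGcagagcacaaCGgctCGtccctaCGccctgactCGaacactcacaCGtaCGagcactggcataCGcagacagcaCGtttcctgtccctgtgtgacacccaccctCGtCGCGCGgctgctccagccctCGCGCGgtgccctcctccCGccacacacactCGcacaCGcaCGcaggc
Slc32a1: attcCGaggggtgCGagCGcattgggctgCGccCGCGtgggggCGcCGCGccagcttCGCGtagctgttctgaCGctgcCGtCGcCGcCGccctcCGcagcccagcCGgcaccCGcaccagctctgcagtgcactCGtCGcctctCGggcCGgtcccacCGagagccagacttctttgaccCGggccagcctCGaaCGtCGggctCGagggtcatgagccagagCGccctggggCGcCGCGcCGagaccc
Both stretches were rich in CpG. Gad2 held 22 CpG and a GC content of 62.0%, and Slc32a1 held 34 CpG and 73.6%, against medians of 5 CpG and 51.2% over 33469 promoters of the same length. Gad1 held 23 CpG and Pvalb 21, at a GC content of 68.4% and 62.8%, so CpG content was similar in Gad1, Gad2 and Pvalb. A relation of CpG content to the range between libraries was not tested.

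The same stretches were searched on both strands for short motifs. The half-site of the estrogen receptor element, GGTCA, occurred 2 times each before Slc32a1 and Pvalb and was not found before Gad1 or Gad2; 35.4% of all promoters held it. The full element, which joins 2 such half-sites in opposite orientation with 3 bases between them, was found in none of the 4 and in 0.0239% of all promoters. The GC box GGGCGG occurred 1 time each before Gad1, Slc32a1 and Pvalb and in 30.5% of all promoters. The half-site of the cyclic AMP response element, TGACG, occurred 1 time each before Slc32a1 and Pvalb and in 18.2% of promoters. The Egr1 site GCGNGGGCG occurred 1 time, before Gad1, and in 4.29% of promoters. The TATA box TATAAA occurred 1 time, also before Gad1, and in 12.9% of promoters. The E-box CANNTG occurred 1 time before Gad1 and 2 times before Pvalb, and in 65.5% of promoters. The AP-1 site TGANTCA was found in none of the 4 and in 6.34% of promoters. None of these motifs was found before Gad2 in this window, which says nothing of sites elsewhere.

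Among the calcium-binding genes, Pvalb had the widest range. Its normalized count was 1937, 2468, 1528 and 1327 in diestrus 2, 3, 4 and 5, and 1165, 1229.7 and 1366 in proestrus 1, 3 and 5. Males 2, 3, 4 and 5 had 1339, 1673, 1129 and 1165. The 2 highest libraries were both in diestrus, but diestrus 5 lay below proestrus 5, so the groups overlapped. Means were 1815 ± 503.8 in diestrus (SD, n = 4), 1327 ± 248.7 in males (SD, n = 4) and 1254 ± 102.2 in proestrus (SD, n = 3).

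The log2 difference of Pvalb was -0.50 in proestrus vs diestrus (95% interval -0.89 to -0.11, adjusted p = 0.130, limma) and 0.43 in diestrus vs males (95% interval 0.07 to 0.79, adjusted p = 0.467, limma). Neither passed the FDR. The value in proestrus vs males was -0.07 (95% interval -0.46 to 0.32). Leaving out diestrus 5 took the first of these past the FDR, at -0.63 with an adjusted p of 0.0339 (limma), so 1 library decided that call. In that fit 1774 of the 15607 genes passed, against 395 with all libraries, so the gain was not particular to Pvalb. Leaving out diestrus 3 gave -0.33, and the value in diestrus vs males ran from 0.27 to 0.57. With the first principal component described below as a covariate, the direction turned, to 0.20 (adjusted p = 0.853, limma). That component overlaps with stage, and 0 of the 15607 genes passed in that fit. It therefore cannot tell the stage difference of Pvalb from the component.

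Calb1 had normalized counts of 1879, 1878, 2645 and 2376 in diestrus 2, 3, 4 and 5, and 2183, 2341 and 2581 in proestrus 1, 3 and 5. Males 2, 3, 4 and 5 had 2133, 2091, 2628 and 2696. Within diestrus and within males, 2 libraries lay between 1878 and 2133 and 2 between 2376 and 2696, and the 3 proestrus libraries fell inside that span. The log2 difference was 0.12 in proestrus vs diestrus (95% interval -0.16 to 0.40), -0.0048 in proestrus vs males (95% interval -0.29 to 0.28) and -0.13 in diestrus vs males (95% interval -0.39 to 0.13). Leaving out 1 library gave 0.053 (without diestrus 3) to 0.22 (without diestrus 4) between the stages and -0.058 to -0.22, for the same libraries, in diestrus vs males.

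Calb2 had normalized counts of 331.1, 376.1, 267.2 and 322.8 in diestrus 2, 3, 4 and 5, and 259.5, 222.4 and 347.5 in proestrus 1, 3 and 5. Males 2, 3, 4 and 5 had 320.4, 390.1, 327.4 and 342.6. The lowest libraries were proestrus 1 and 3, but proestrus 5 lay above 3 of the 4 males. The log2 difference was -0.24 in proestrus vs diestrus (95% interval -0.57 to 0.08, adjusted p = 0.293, limma) and -0.10 in diestrus vs males (95% interval -0.40 to 0.20). In proestrus vs males it was -0.34 (95% interval -0.66 to -0.02), with an unadjusted p of 0.0414 and an adjusted p of 0.429 (limma). Single proestrus libraries moved these values by over 1.5 times. Without proestrus 3 they were -0.10 in proestrus vs diestrus and -0.20 in proestrus vs males, and without proestrus 5 they were -0.42 and -0.52, none past the FDR. In diestrus vs males the range was -0.17 to -0.0065.

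Gad2 between the stages was the 1 call, and 0 of the 6 genes passed the FDR in any comparison with males. Of all genes, 0.0833% passed between proestrus and males, 0.128% between diestrus and males and 0.135% between all females and males. The quasi-likelihood test of edgeR and DESeq2 also called 0 of the 6 in those comparisons. Unadjusted p-values were below 0.05 for 2 of the 6 genes in proestrus vs diestrus (Gad2 and Pvalb), 2 in proestrus vs males (Gad2 and Calb2), 2 in diestrus vs males (Gad2 and Pvalb) and 0 in females vs males. Of all genes, 26.7%, 11.3%, 9.62% and 4.83% were, in the same order. The groups did not overlap for 1 of the 6 in each of the first 2 comparisons, Gad2 in both, and for 0 in the others. Over all genes this share was 26.6% for proestrus against diestrus and 13.3% for proestrus against males. It was 3.84% for diestrus against males and 1.06% for all females against males. The median log2 difference of the 6 genes was 0.0020 in proestrus vs diestrus, and that of all genes was -0.01.

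**Figure D3:**
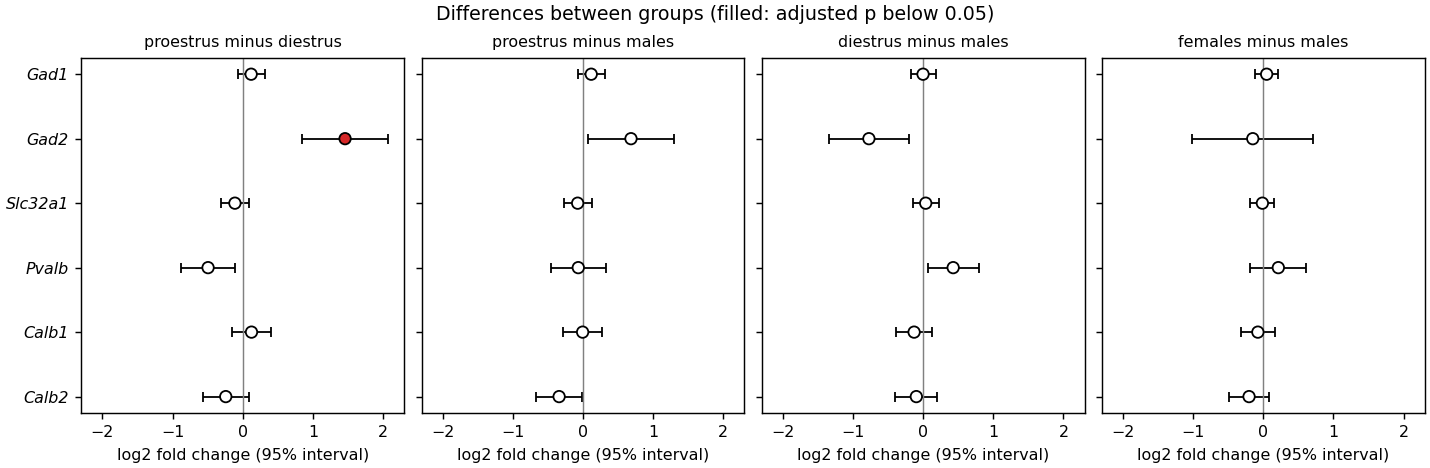
Log2 fold change (x axis) of the 6 genes (y axis) in 4 comparisons, each panel named as first group minus second, with its 95% interval from limma. The 1 filled point, Gad2 in proestrus minus diestrus at 1.46, has an adjusted p below 0.05.

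Between libraries of one group, the genes also differed in spread. The CV of Gad2 was 35.9% in diestrus and 35.4% in males but 4.71% in proestrus, which is close to its counting error of 4.65% to 4.98% there. The CV of Pvalb was 27.8% in diestrus, 18.8% in males and 8.15% in proestrus. For Gad1 it was 10.9%, 6.83% and 6.12% in the same order, and for Slc32a1 6.04%, 10.4% and 9.19%. For Calb1 it was 17.4%, 13.4% and 8.46%, and for Calb2 13.8%, 9.09% and 23.2%. Single libraries set several of these values. The proestrus value of Calb2 was 10.9% without proestrus 5, and that of Gad2 was 19.5% in diestrus without diestrus 5 and 19.4% in males without male 3, against 2.97% to 6.63% in proestrus without any 1 library. Pvalb in males was 9.26% without male 3. Proestrus rests on 3 libraries, and differences in spread were not tested. Over all 11 libraries, the SD of log2 Gad2 was 0.74, a larger value than for 99.2% of the 11731 genes whose mean normalized count was 50 or more. Pvalb stood at the 89.4th percentile by that measure, Calb2 at the 74.9th, Calb1 at the 57.6th, Gad1 at the 25.6th and Slc32a1 at the 24.9th.

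Whether the genes varied together between animals was examined over the 11 libraries, with 15 pairs, permutation p-values (100000 resamples, two-sided) and Benjamini-Hochberg adjustment over the pairs. Gad2 and Pvalb were opposed, with a Pearson r of -0.84 (permutation p = 0.00084, adjusted p = 0.0126) and a Spearman rho of -0.72 (permutation p = 0.0163, adjusted p = 0.0618). The r was -0.82 without the 2 libraries farthest from the Gad2 median (permutation p = 0.00618, adjusted p = 0.0927). On deviations from the group means it was -0.77 (permutation within groups, p = 0.0342, adjusted p = 0.115), so the direction held within groups while the adjusted p did not pass. An r as large as the -0.84, in either direction, linked Gad2 to 22.6% and Pvalb to 21.4% of those better expressed genes.

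Slc32a1 and Pvalb varied together, with an r of 0.75 (permutation p = 0.0082, adjusted p = 0.0318) and a rho of 0.82 (permutation p = 0.00329, adjusted p = 0.0493). Without the 2 farthest libraries r was 0.73 (permutation adjusted p = 0.124), and on deviations from the group means it was 0.77 (permutation adjusted p = 0.0327). By comparison, 7.77% of the genes lay as close to Slc32a1 by this measure, and 39.2% as close to Pvalb. Gad1 and Calb1 had an r of 0.77 (permutation p = 0.00411, adjusted p = 0.0308) and a rho of 0.76 (permutation p = 0.00885, adjusted p = 0.0618). Its r was 0.67 without the 2 farthest libraries (permutation adjusted p = 0.182) and 0.84 on deviations from group means (permutation adjusted p = 0.0852), so it did not pass under either. An r as large as the 0.77, in either direction, linked Gad1 to 16.1% and Calb1 to 12.7% of the genes.

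Pvalb and Calb1 had an r of -0.73 (permutation p = 0.00848, adjusted p = 0.0318) and a rho of -0.66 (permutation p = 0.0304, adjusted p = 0.0913), but r was -0.31 without the 2 libraries with the most extreme Pvalb (permutation adjusted p = 0.665), so the pooled relation rested on those. On deviations from the group means r was -0.73 (permutation adjusted p = 0.124). An r as large as the pooled one, in either direction, linked Pvalb to 41.5% and Calb1 to 20.5% of the genes. The other 11 pairs did not pass by r. Gad1 and Gad2 had an r of 0.61 (permutation p = 0.0457, adjusted p = 0.0900) and a rho of 0.56 (permutation p = 0.0759, adjusted p = 0.179), and 0.40 without the 2 farthest libraries. Gad1 and Pvalb had an r of -0.69 (permutation p = 0.0197, adjusted p = 0.0590) and a rho of -0.35 (permutation p = 0.286, adjusted p = 0.307), and -0.22 without the 2 farthest libraries.

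**Figure D4:**
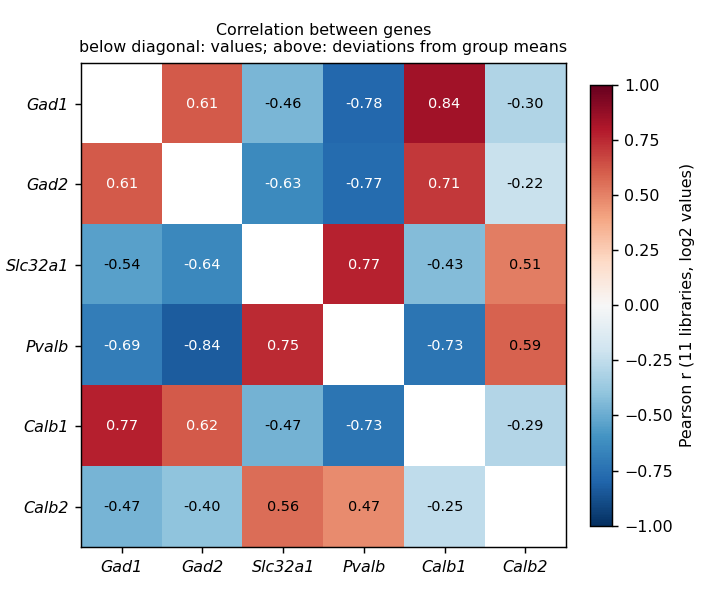
Pearson r between each pair of the 6 genes over the 11 libraries on log2 values, below the diagonal as measured and above it on deviations from the group means (colour scale from -1 to 1). Pvalb and Slc32a1 vary together (0.75 and 0.77), and Pvalb is opposed to Gad2 (-0.84 as measured). The value of -0.64 for Gad2 and Slc32a1 did not pass (permutation adjusted p = 0.0890).

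The 6 genes were also set against 1 axis of the libraries, the first principal component, and followed it to different degrees. Other components were not examined. The first principal component of the 500 most variable genes, with the 6 left out, held 24.8% of their variance. It placed diestrus libraries from -16.8 to -0.77, males from -12.1 to 13.0 and proestrus libraries from 10.2 to 15.1. Over the 11 libraries Gad2 followed it with an r of 0.97 (permutation p = 3e-05, adjusted over 6 genes 0.00018) and a rho of 0.92 (permutation p = 0.00026, adjusted p = 0.00156), and r was 0.97 without the 2 farthest libraries. Within groups, on deviations from the group means, r was 0.91. Of the genes whose mean reached 50, 1.48% followed the axis as closely.

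Pvalb ran opposite to the axis, with an r of -0.89 (permutation p = 6e-05, adjusted p = 0.00018) and a rho of -0.88 (permutation p = 0.0007, adjusted p = 0.0021), -0.89 without the 2 farthest libraries and -0.88 within groups. That was shared with 17.1% of genes. Slc32a1 had an r of -0.72 (permutation p = 0.0130, adjusted p = 0.0260) and a rho of -0.73 (permutation p = 0.0145, adjusted p = 0.0290), and -0.56 without the 2 farthest libraries. In either direction, 46.9% of genes had an r to the axis at least as large as that of Slc32a1. Gad1, Calb1 and Calb2 had an r of 0.64, 0.66 and -0.51, which 56.8%, 54.6% and 69.0% of genes matched or exceeded. Their permutation adjusted p was 0.0402, 0.0402 and 0.107 by r, and 0.172, 0.119 and 0.119 by rho. With the axis as a covariate, the Gad2 difference between proestrus and diestrus was 0.31 with an adjusted p of 0.846 (limma). Stage and the axis overlap, and what the axis measures was not tested.

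**Figure D5:**
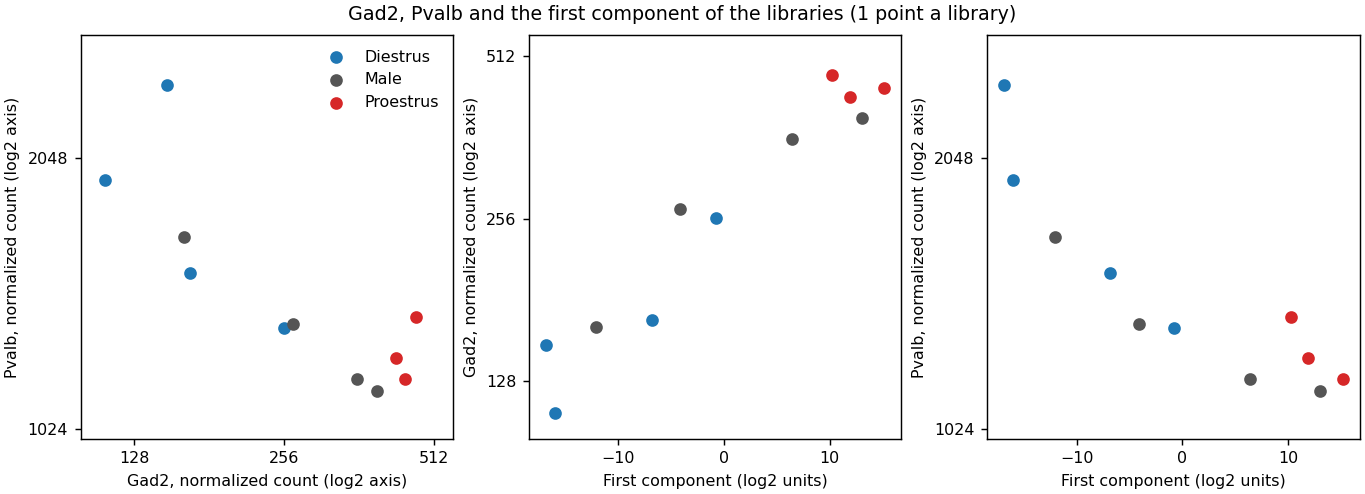
Normalized counts of Pvalb against Gad2 (left), of Gad2 against the first principal component (middle) and of Pvalb against that component (right), 1 point a library, coloured by group, counts on log2 axes. Gad2 rises along the component (r = 0.97) and Pvalb falls (r = -0.89), and male 3 lies among the diestrus libraries on both.

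Many genes shared the pattern of Gad2. Of the genes whose mean normalized count reached 50, 737 (6.28%) had an r of 0.9 or more to it and 279 had an r of -0.9 or less. The closest were ENSRNOG00000011431 (r = 0.992), with means of 151.6, 213.4 and 282.0 in diestrus, males and proestrus, and ENSRNOG00000024964 (r = 0.990), with 32.9, 57.3 and 81.7. Pvalb had 520 such genes (4.43%), led by ENSRNOG00000011797 (r = 0.979), with means of 1543, 1370.2 and 1331, and ENSRNOG00000048273 (r = 0.972), with 1203, 871.1 and 828.9. The patterns of the others were rarer, with 41 genes at an r of 0.9 or more for Gad1, 17 for Calb1, 6 for Slc32a1 and 1 for Calb2. These are similarities over 11 libraries and say nothing of shared control.

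Other genes of the GABA pathway and of interneurons were taken from lists of 58 genes, of which 15 could be matched to an identifier. None of the 15 passed the FDR in any comparison, at a median log2 difference of -0.05 in proestrus vs diestrus. The GABA-A receptor subunit genes Gabra4 and Gabra2 had the largest values of the receptor list. Gabra4 was 136.2, 159.2, 260.3 and 290.8 in diestrus 2, 3, 4 and 5, and 508.9, 502.7 and 536.0 in proestrus 1, 3 and 5, a log2 difference of 1.35 (95% interval 0.57 to 2.14, adjusted p = 0.0646, limma). Gabra2 was 100.9, 102.5, 195.5 and 212.6 in diestrus and 378.1, 295.6 and 354.6 in proestrus, a log2 difference of 1.24 (95% interval 0.55 to 1.92, adjusted p = 0.0566, limma). These genes were picked for their stage difference, and their groups did not overlap, as for 26.6% of all genes. Males ran from 147.0 to 546.1 for Gabra4 and from 139.0 to 355.8 for Gabra2.

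Abat, which encodes the enzyme that breaks GABA down, was 1098 ± 147.1 in diestrus (SD, n = 4), 1322 ± 206.7 in males (SD, n = 4) and 1464 ± 92.5 in proestrus (SD, n = 3), a log2 difference of 0.42 between stages (adjusted p = 0.0900, limma). The other 4 matched receptor genes, outside the rule for naming and given after their values were seen, were 1.09 for Gabrg1 (adjusted p = 0.130, limma), 0.36 for Gabrr3, -0.16 for Gabrb1 and -0.08 for Gabbr1. Of the 5 matched genes of the interneuron list 1 was positive, with a median of -0.06. Nos1 (neuronal nitric oxide synthase) had 0.47 (adjusted p = 0.161, limma) and Cplx1 (complexin 1, which acts in vesicle release) -0.34 (adjusted p = 0.128, limma), and the others, also given after their values were seen, were -0.24 for Sst (somatostatin), -0.06 for Dlx1 and -0.05 for Dlx2. Of other EF-hand genes, Ocm2 had -0.93 at means of 48.6 and 25.2 in diestrus and proestrus (adjusted p = 0.0894, limma), Caln1 had 0.45 (adjusted p = 0.201, limma) and Cabp1, the third matched gene, had -0.37.

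Markers of other cell types were read beside these values, as 27 matched genes of 8 lists. None of the 27 passed the FDR between proestrus and diestrus, and members of most lists went both ways there. Of 4 astrocyte markers, Sox9 (0.70) and Gja1 (0.26) had positive log2 differences and S100b (-0.28) and Fabp7 (-0.23) negative ones, while their sum, most of it S100b, was 22253 to 26554 in diestrus and 20333 to 23592 in proestrus. Of 5 vessel and mural markers, Nid1 (1.10), Erg (0.35) and Col18a1 (0.29) were positive, and Myh11 (-0.32) and Igfbp7 (-0.26), which make up most of the sum, were negative. Nid1, a basement membrane gene of low level, had the largest of these values (95% interval 0.41 to 1.79, adjusted p = 0.0838, limma), and its part in the Gad2 difference was not tested. Its normalized count was 65.3 ± 9.90 (SD, n = 3) in proestrus and 31.5 ± 13.5 (SD, n = 4) in diestrus, with no overlap. The vessel sum was 3792 to 4334 in diestrus and 3239.9 to 3632 in proestrus, and the list's median log2 difference was 0.29. The 6 microglial markers summed to 1649.6 to 1864 and 1531 to 1572, with 1 of 6 positive and a median of -0.16.

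The 4 oligodendrocyte markers summed to 15108 to 19182 in diestrus and 14529 to 17558 in proestrus, and the 4 general neuronal markers to 52301 to 67659 and 50229 to 52332, with 1 of 4 positive in each. The 1 matched marker of oligodendrocyte precursors ran from 717.3 to 882.5 and from 894.8 to 967.1, and the 1 of cortical excitatory neurons from 988.4 to 1597 and from 1440.3 to 1633. No matched marker was at 0 in all libraries. Of the 27, only Col18a1 (collagen XVIII, of vessel basement membranes) passed the FDR in any comparison, in diestrus vs males at -0.61 (adjusted p = 0.0339, limma).

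Proestrus 5 stood apart on a marker of striatal projection neurons, GABA cells that lie next to the deep cortex. Adora2a, an adenosine receptor gene, was 304.7 there, against 102.0 and 103.6 in proestrus 1 and 3, 140.6 to 179.6 in diestrus and 95.8 to 157.0 in males. Adcy5, the other matched gene of that list, was 3511 in proestrus 5 and 2721 to 3203 in the other 10 libraries. Proestrus 5 was also the highest of the 3 proestrus libraries for each of the 6 genes. Without it, Gad2 between the stages was 1.42 (adjusted p = 0.114, limma), no longer past the FDR. That loss was not particular to proestrus 5. Gad2 was 1.46 without proestrus 1 (adjusted p = 0.146, limma) and 1.49 without proestrus 3 (adjusted p = 0.111, limma). The part of tissue composition in the Gad2 difference was not tested.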

How the data were processed

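Per the labels, mPFC poly(A) RNA was sequenced in 11 libraries. The authors trimmed the reads with Trimmomatic 0.32, aligned them with TopHat2 2.0.11 and Bowtie2 2.1.0 to Rnor_5.0, counted unique reads per gene with HTSeq 0.6.1p1, discarded genes under a minimum set from spike-ins and left out 1 proestrus library (not analysed here). The deposited signal is a DESeq2-normalized count for each gene. Dividing it by the smallest step of its library returned whole reads (within 0.01). In the second deposited table, described as edgeR-normalized, each value was a read count times 1 of 11 factors (0.956 to 1.07) that followed its position in the table and not its library, so it served as an alternative only.

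The test was limma 3.58.1 in R 4.3.3 with a variance trend on log2(normalized count + 1), a scale that understates the change of low genes, over all 15607 genes. One fit with 3 groups gave the pairwise comparisons and another gave females vs males. Alternatives were edgeR 4.0.16, DESeq2 1.42.0, TMM scaling, the second table, quantile normalization, other pseudocounts, a filter, fewer libraries, a replicate block and permutation. Use of the first component, its correlations, the Gad2 share and the CVs without 1 library were added after seeing the data. The limma, edgeR and DESeq2 fits of each comparison were tested on simulated data, in which all genes had the same spread beyond counting error. The other alternatives were not tested in this way. The genes, lists and tests were chosen with earlier results of these data known. The study's methods call the libraries biological replicates. Cage mates at 1 stage were killed together, and males on the same day as females, and which animals shared a day is not given in the sources used here.

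Named genes were the 6, the list genes past the FDR or the 2 of each pathway list with the largest difference between stages, and the genes nearest in pattern to each of the 6 (shown for Gad2 and Pvalb). Other receptor, interneuron and marker genes were named after their values were seen. List symbols came from identifier and symbol columns of a shortened supplementary table with 1238 names, since 0 of 47357 RefSeq genes carried an Ensembl identifier; 42 of 118 list genes matched. Same-numbered libraries of different groups had correlations of 0.012 to 0.59 in their deviations, all above 0 but not all above 0.1, so the numbers were not taken as pairs.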

Additional observations from a re-analysis of the deposited data

Results flagged for a closer look

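The log2 difference of Gad2 from the same 4 males was 0.68 in proestrus and -0.77 in diestrus, and neither passed the FDR (adjusted p = 0.418 and 0.432, limma). The males cancel in the difference between these values, so it is the stage comparison of the report and no further evidence, at 1.46 (95% interval 0.84 to 2.07, adjusted p = 0.0266). It was higher in 3 of 3 proestrus libraries than in any diestrus library. None of the 12 groups of 4 libraries (6 genes in diestrus and in males) held a library far enough from the others to be singled out by Dixon's 95% criterion. The largest gap was 0.682 of the group's range, for Calb2 in males. It was a library above the other 3.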

How the results depend on the processing

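Gad2 passed the FDR between proestrus and diestrus in the 10 alternatives of test, scaling, pseudocount, filter and fit, at a log2 fold change of 1.37 to 1.46. Of the 6 genes, 0 passed in the exact permutation test, which could not pass at this size, and 0 with the first component as covariate; the cause of the latter was not tested. Without 1 library at a time the number was 0 to 2. In the comparisons with males, 0 passed under every alternative run. Of all genes, 395 were called between the stages, against 1076 with DESeq2, 817 with only the compared groups, 551 in the second table, and 0 to 1774 without 1 library. Against males, 13, 20 and 21 genes were called in proestrus, diestrus and all females. DESeq2 called 118, 117 and 77, the second table gave 106, 108 and 38, and leaving out 1 library 2 to 26, 1 to 88 and 1 to 24. Only the compared groups gave 23 in proestrus. The first component as covariate gave 0 genes between the stages, and 32 in diestrus and 103 in all females. The exact permutation test called 0 genes in each comparison.

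Whether the numbers in the labels mark shared collection days is not known. Same-numbered libraries correlated at 0.049 to 0.59 (diestrus and males), 0.012 to 0.14 (diestrus and proestrus) and 0.12 to 0.16 (males and proestrus), and not every library correlated best with its own number. With the replicate block Gad2 was 1.43 between the stages (adjusted p = 0.0403, limma) and 1 of the 6 genes was called. All genes called went from 395 to 517 between the stages, from 13 to 3 in proestrus and from 20 to 47 in diestrus against males. Directions turned with the replicate block for Calb1 in proestrus vs males (0.071) and Slc32a1 in females vs males (0.026).

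No called value changed sign. With the first component as covariate, proestrus vs diestrus became -0.087 for Gad1, 0.14 for Slc32a1, 0.20 for Pvalb (from -0.50), -0.28 for Calb1 and 0.0014 for Calb2. It became 0.053 for Slc32a1 and 0.29 for Pvalb in proestrus vs males, and 0.099 for Gad1, -0.083 for Slc32a1 and 0.070 for Calb1 in diestrus vs males. In the second table, which is not scaled between libraries, Gad1 was -0.022 between stages and 0.070 in diestrus vs males, and Slc32a1 was 0.00039 in females vs males. Gad1 in diestrus vs males was 0.0028 with edgeR and 0.0039 with DESeq2, and quantile normalization gave 0.015 for Calb1 in proestrus vs males.

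Without 1 library at a time, Pvalb ran from -0.14 to 0.051 and Calb1 from -0.069 to 0.057 in proestrus vs males, Gad1 from -0.049 to 0.069 and Slc32a1 from -0.026 to 0.095 in diestrus vs males, and Gad2 from -0.41 to 0.047 and Slc32a1 from -0.075 to 0.047 in females vs males. Of the 15 gene pairs, 4 passed by r as measured, 1 on deviations from the group means and 0 without the 2 farthest libraries, where 9 libraries remain; r of Gad1 and Slc32a1 went from -0.54 to 0.0028 there. Depth limits Gad2 and Calb2 most, at 114 to 463 and 234 to 413 reads.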
